A study of Drosophila melanogaster with 10 samples.

Results

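This comparison sets the transcriptome of Brat-depleted type II neuroblast (NB II) lineages against that of control NB II lineages of the larval brain of Drosophila melanogaster. It uses the 7 libraries whose labels give the genotype as brat-KD (4 libraries) or control (3 libraries), of 10 libraries in the series, and all 17676 genes of the deposited count table. In both genotypes wor-GAL4 with ase-GAL80 drove mCD8::GFP in NB II, and in brat-KD the driver also expressed a dsRNA against brat. Brains were dissected from larvae labelled as 96 h old, and GFP-positive cells were sorted for RNA. The isolation methods of the study state the larval age differently, in days, and which age holds is not settled in the sources used here. The labels describe the sorted cells as the neuroblasts with their descendants, whereas the methods of the study describe a gate on scatter and GFP intensity that was meant to collect NB II. How many intermediate progenitors and young neurons passed this gate is not given in the sources used here, and the makeup of a library may differ between the genotypes. Fewer cells of a type and less RNA per cell cannot be told apart in any of the results.

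NB II are neural stem cells that keep themselves while budding off intermediate neural progenitors (INPs). An INP first matures and then divides several times to give ganglion mother cells, which in turn make neurons and glia. Brat is a TRIM-NHL protein that binds mRNA and represses translation. It is partitioned into the smaller daughter at each NB II division, and without it that daughter returns to a neuroblast-like state instead of maturing, which produces a transplantable tumor.

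Levels are given as CPM, read counts scaled to one common library total, which express the share of a library's counted reads that fell on a gene after scaling for library composition. Differences are log2 fold changes of brat-KD over control with their standard error (SE), and averages carry their SD over the 4 brat-KD and the 3 control libraries. The p-values were taken from the quasi-likelihood test of edgeR and adjusted by the Benjamini-Hochberg method over the 8785 genes with enough reads to test. A gene below 0.05 is said to have risen or fallen. List members named for the size of their change had to have libraries that did not overlap between the genotypes. The separation of such genes was thus fixed by the choice and adds no support. No source states that replicates came from separate cultures or animals, so the p-values measure the spread between these libraries, which may be partly technical. The libraries held 5432145 to 7409954 counts in brat-KD and 4968226 to 9753111 counts in control. Amplification took 17 or 24 PCR cycles, and which library had which is not given in the sources used here. Where 2 genes overlap, their counts cannot be assigned to 1 of them with certainty, because the strand setting of the counting is not given in the sources used here, and each named gene of this kind is pointed out.

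The targeted gene followed its label. brat (chromosome 2L, 19133816 to 19179758 on BDGP6, the build of the files) had 158, 129, 215 and 184 CPM in brat-KD, against 916, 950.4 and 1006 CPM in control (log2 fold change -2.48 ± 0.18, adjusted p = 1.5e-05). Among the libraries, control replicate 1 stood apart, with Spearman correlations across genes of 0.903 and 0.901 to the other control libraries, which had 0.959 with each other, against 0.944 to 0.96 between brat-KD libraries. It also had the fewest genes with a count, 8558, against 11537 to 11617 in the other control libraries and 9680 to 11371 in brat-KD. Most hemocyte, fat body and muscle markers were low, but the sums of the hemocyte and muscle lists differed between the genotypes. The hemocyte genes He, eater and NimC1 were at 0 in every library, and Hml had 0.353 CPM in brat-KD replicate 1 and 0 elsewhere. The summed hemocyte list had 25.2 to 35.8 CPM in brat-KD, against 44.8, 119 and 106 CPM in control, lower in every brat-KD library. Its member Pxn, described below, had 33.6, 87.4 and 78.1 CPM in control. The fat body gene Lsp1beta had 0 CPM in the brat-KD libraries, against 0, 0.819 and 14.4 CPM in control, and the summed fat body list had 24.7 to 30.3 CPM in brat-KD, against 25.0, 21.5 and 84.6 CPM in control. The muscle gene up had 0.705, 1.18, 1.32 and 0.824 CPM in brat-KD, against 10.3, 1.54 and 5.11 CPM in control, and the summed muscle list had 68.9 to 116 CPM in brat-KD, against 60.4, 39.6 and 36.2 CPM in control. The gene up had too few reads to test. Of 3 muscle genes tested, 1 rose and 1 fell (0 without control replicate 2), with log2 fold changes from -3.89 to 2.22. The member that rose is not described here. Control replicate 3 was thus highest for fat body genes and control replicate 1 for up, while the muscle sum was higher in every brat-KD library. Of 13 glial genes tested, 1 rose and 3 fell, and the glial selector repo had 3.70, 7.77, 4.23 and 0.494 CPM in brat-KD, against 0, 7.88 and 9.54 CPM in control, with overlapping groups. The summed glial list had 627 to 700 CPM in brat-KD, against 1162, 846 and 776 CPM in control, lower in every brat-KD library. The part of other cells in the results was not tested. brat and repo overlap another annotated gene.

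After scaling for library composition, genes rose and fell in brat-KD in nearly equal numbers. Of the 8785 genes tested, 2467 passed the threshold (28.1%), with 1209 raised (13.8%) and 1258 lowered (14.3%). The median log2 fold change over all tested genes was -0.02, and 2376 of the 2467 genes had libraries that did not overlap between the genotypes, against 39.1% of all tested genes. The scaling takes most genes as unchanged, so the balance of rises and falls and this median were partly set by it. With total counts in its place, 1294 genes rose and 1080 fell. A change in total RNA per cell cannot be seen in CPM. Falls of at least 4-fold were seen in 329 genes and rises of that size in 140. At 8-fold there were 124 falls and 51 rises, and at 16-fold the numbers were nearly equal, with 33 falls and 31 rises. When all 3 genotypes were fitted at once, 1250 genes passed, 676 raised and 574 lowered. The count of lowered genes was 815 without control replicate 2 and 816 without control replicate 3, and it was 1623 without control replicate 1. The 56 gene lists that follow hold 1150 of the tested genes, 245 of the raised genes and 232 of the lowered genes, and the count of each list is to be read against the shares over all genes.

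**Figure D1:**
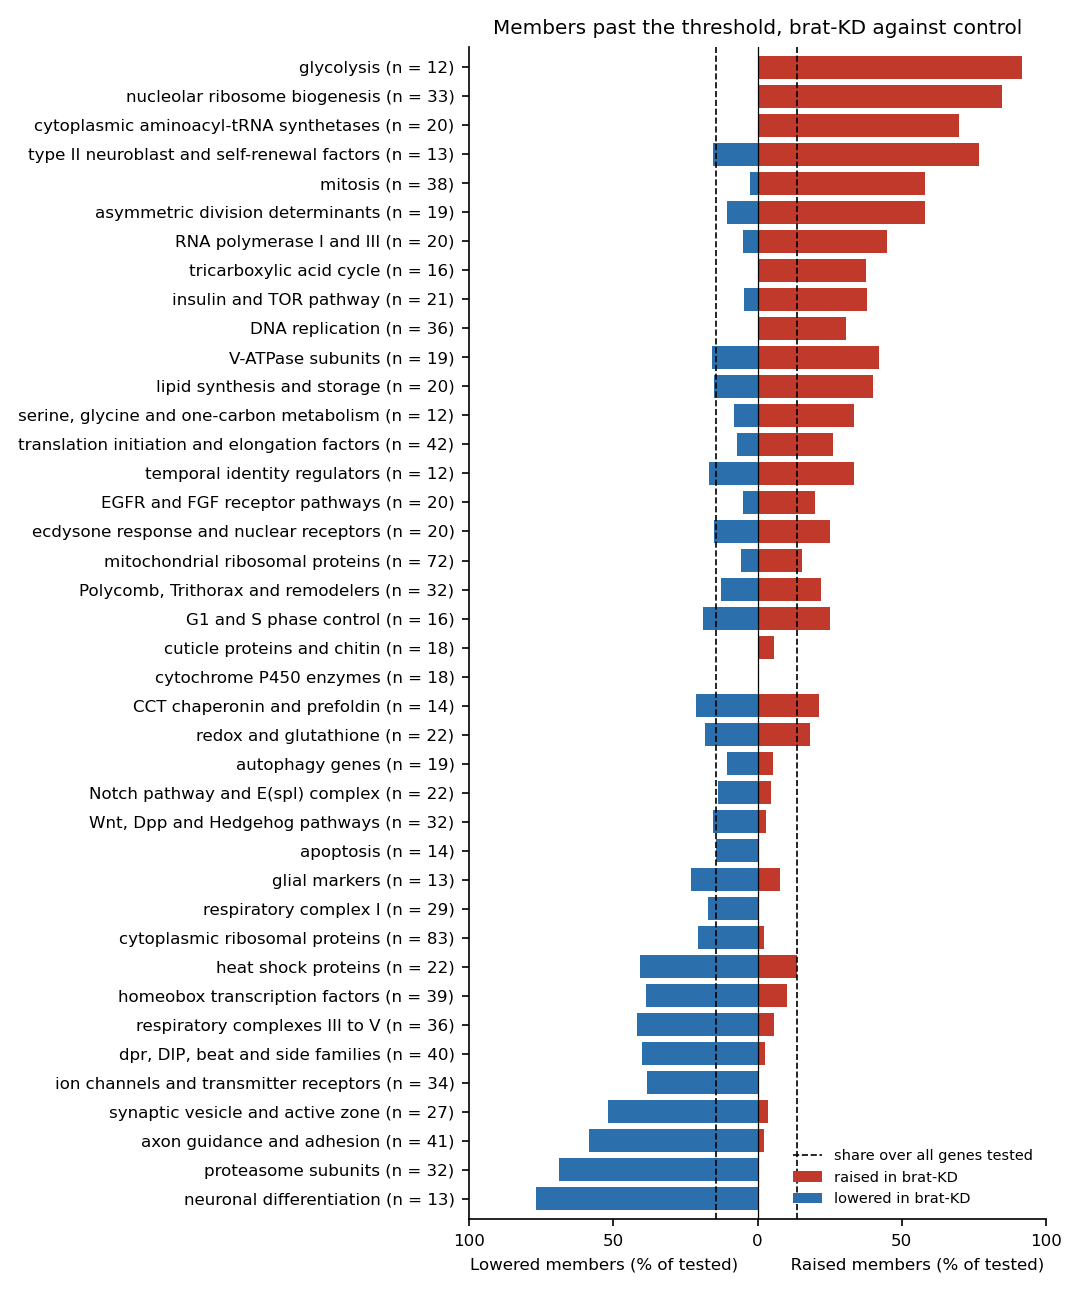
Share of tested members that rose (to the right) or fell (to the left) in brat-KD against control, for the gene lists with at least 12 tested members; n is the number tested and dashed lines mark the shares over all 8785 genes (13.8% raised, 14.3% lowered). Nucleolar ribosome biogenesis and aminoacyl-tRNA synthetase genes stand at the raised end, and neuronal differentiation and proteasome genes at the lowered end.

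The self-renewal program of NB II was higher in brat-KD. Of 13 transcription factors and polarity genes in the list, 10 rose and 2 fell, with a median log2 fold change of 1.08. dpn, which encodes a bHLH repressor that keeps neuroblasts dividing, had 147, 144, 152 and 169 CPM in brat-KD, against 74.7, 69.5 and 72.6 CPM in control (log2 fold change 1.08 ± 0.14, adjusted p = 0.00032). wor, a Snail-family factor, had 389, 411, 351 and 316 CPM in brat-KD, against 188, 199.9 and 183 CPM in control (log2 fold change 0.95 ± 0.14, adjusted p = 0.00065). klu, a zinc-finger repressor that promotes neuroblast fate, had 252, 239.7, 272 and 248 CPM in brat-KD, against 138, 134 and 125 CPM in control (log2 fold change 0.93 ± 0.13, adjusted p = 0.00044). For these 3 genes every brat-KD library lay above every control library, and the brat-KD values stayed within a narrow band. dpn did not pass when all 3 genotypes were fitted at once (adjusted p = 0.19).

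Other members of the same list rose too. tll, an orphan nuclear receptor required in NB II, had 105, 114, 105 and 115.3 CPM in brat-KD, against 40.9, 31.2 and 26.4 CPM in control (log2 fold change 1.74 ± 0.19, adjusted p = 9.6e-05). pnt, an ETS factor that suppresses ase in NB II, had 452, 312, 319.9 and 368 CPM in brat-KD, against 86.7, 52.5 and 61.5 CPM in control (log2 fold change 2.44 ± 0.21, adjusted p = 3.4e-05). The Sp-family factor btd had 81.1, 83.6, 68.6 and 109.7 CPM in brat-KD, against 3.12, 30.6 and 19.3 CPM in control (log2 fold change 2.25 ± 0.53, adjusted p = 0.009). The control libraries of btd were spread widely, with control replicate 1 lowest, and still lay below all brat-KD libraries. The largest rise of the list was that of Six4, a Six-family homeodomain factor, at 128, 159, 108 and 84.0 CPM in brat-KD, against 13.96, 22.4 and 25.97 CPM in control (log2 fold change 2.53 ± 0.28, adjusted p = 0.00011).

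The members that fell were cas and insb. cas, a zinc-finger gene best known as a temporal factor of embryonic neuroblasts, had 77.1, 90.7, 104 and 133 CPM in brat-KD, against 375, 736 and 646 CPM in control (log2 fold change -2.53 ± 0.25, adjusted p = 4.8e-05). insb, which encodes a nuclear inhibitor of Notch activity in sensory organ precursors, had 23.3, 19.3, 27.0 and 21.4 CPM in brat-KD, against 78.2, 89.8 and 91.4 CPM in control (log2 fold change -1.93 ± 0.19, adjusted p = 5.8e-05). Neither gene had overlapping groups, which the rule for naming members by the size of their change required. The rise of the list was not shared by every member. dpn, pnt and Six4 overlap another annotated gene.

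INP factors moved the other way. Of 10 tested, 0 rose and 7 fell, with a median log2 fold change of -1.73; without control replicate 1 the number raised was 1. ase, the proneural-related gene that separates maturing INPs from NB II, had 10.9, 12.3, 15.7 and 38.2 CPM in brat-KD, against 61.3, 70.7 and 62.4 CPM in control (log2 fold change -1.75 ± 0.39, adjusted p = 0.0071). erm, whose zinc-finger product stops INPs from reverting, had 14.1, 12.2, 25.3 and 29.0 CPM in brat-KD, against 57.3, 73.0 and 67.5 CPM in control (log2 fold change -1.71 ± 0.31, adjusted p = 0.0022). No brat-KD library reached a control library for either gene. ase and erm overlap another annotated gene.

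Several factors that pattern INPs over time fell. The list of INP factors also held 2 members with positive log2 fold changes, of up to 0.616, that did not pass. D, a Sox gene of young INPs, had 19.6, 14.4, 21.3 and 20.6 CPM in brat-KD, against 158, 77.8 and 68.8 CPM in control (log2 fold change -2.42 ± 0.30, adjusted p = 0.00021). opa, a zinc-finger gene, had 10.2, 11.8, 25.5 and 17.0 CPM in brat-KD, against 80.1, 136 and 97.9 CPM in control (log2 fold change -2.69 ± 0.32, adjusted p = 0.00016). ey, the Pax6 homolog of older INPs, had 9.70, 10.6, 9.93 and 22.6 CPM in brat-KD, against 55.6, 64.9 and 53.7 CPM in control (log2 fold change -2.14 ± 0.33, adjusted p = 0.00081). ham, which encodes a PR-domain factor that limits INP proliferation, had 18.9, 16.6, 5.03 and 37.4 CPM in brat-KD, against 150.02, 89.9 and 92.3 CPM in control (log2 fold change -2.51 ± 0.48, adjusted p = 0.0031). All 4 kept a residual level in brat-KD, and in none did the groups overlap. ey and ham did not pass when all 3 genotypes were fitted at once (adjusted p-values of 0.11 and 0.089). ey and ham overlap another annotated gene.

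**Figure D2:**
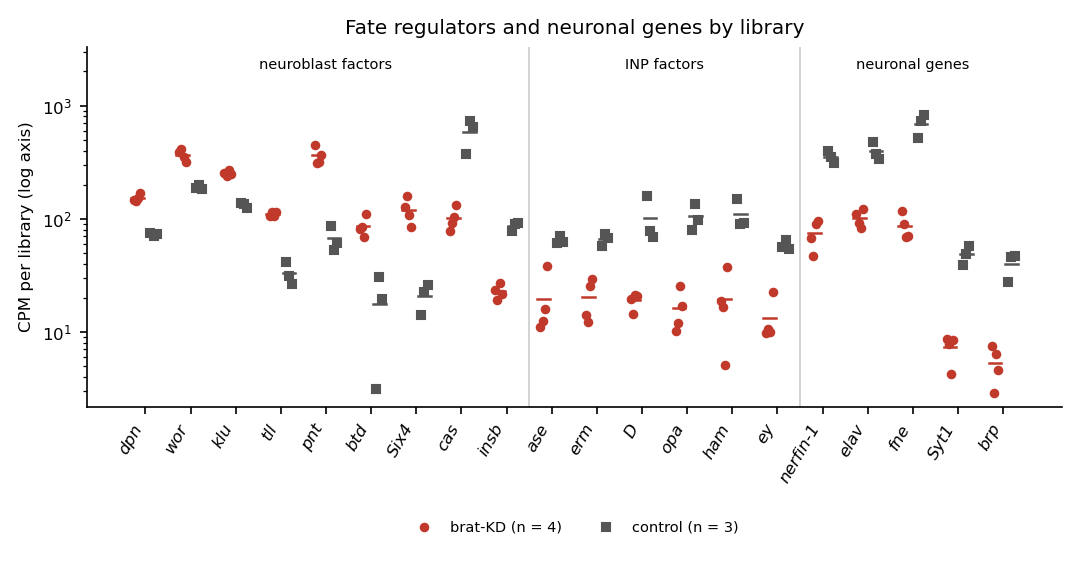
CPM per library on a log axis for neuroblast factors, INP factors and neuronal genes; circles are the 4 brat-KD libraries, squares the 3 control libraries and short lines the group means. From dpn to Six4 the brat-KD libraries lie above control, and for cas, insb and all genes to their right they lie below.

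Temporal regulators, which change neuroblast output as larvae age, split. Of 12 tested, 4 rose and 2 fell. Log2 fold changes ran from -2.04 to 5.055, and the member with the largest rise is not described here. Imp, which the paper reports as strongly raised after Brat depletion, is not described here either. Syp, an RNA-binding protein of late neuroblasts, had 4076, 2596, 3299 and 3677 CPM in brat-KD, against 2369, 1332 and 1380.3 CPM in control (log2 fold change 1.01 ± 0.25, adjusted p = 0.011). svp, a nuclear receptor that acts as a switch between early and late windows, had 125, 144, 117 and 158 CPM in brat-KD, against 5.14, 29.7 and 28.9 CPM in control (log2 fold change 2.67 ± 0.45, adjusted p = 0.0014). The zinc-finger gene mamo had 37.2, 22.5, 29.6 and 67.6 CPM in brat-KD, against 210.4, 86.1 and 126 CPM in control (log2 fold change -1.84 ± 0.38, adjusted p = 0.0043). The zinc-finger gene dati had 52.2, 63.4, 45.1 and 63.8 CPM in brat-KD, against 206, 261 and 225 CPM in control (log2 fold change -2.04 ± 0.17, adjusted p = 2.2e-05). Syp and svp were higher, and mamo and dati lower, in every brat-KD library than in any control library. The early factor chinmo averaged 324 ± 35.1 CPM in brat-KD and 311 ± 49.6 CPM in control (log2 fold change 0.06 ± 0.15, adjusted p = 0.81). The late factor Eip93F averaged 137 ± 7.36 CPM in brat-KD and 147 ± 36.3 CPM in control (log2 fold change -0.10 ± 0.18, adjusted p = 0.73). The ecdysone-induced gene br averaged 391 ± 70.4 CPM in brat-KD and 536 ± 129 CPM in control (log2 fold change -0.46 ± 0.19, adjusted p = 0.1). None of these 3 passed the test. The sign of chinmo turned without control replicate 1 and that of Eip93F without control replicate 2 (log2 fold changes -0.06 and 0.07). Syp, svp, mamo, dati, chinmo and br overlap another annotated gene.

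Most genes for asymmetric division rose, and their best known cargo fell. Of 19 tested, 11 rose and 2 fell. The polarity gene scrib had 330.4, 274, 367 and 329.7 CPM in brat-KD, against 105, 103 and 121 CPM in control (log2 fold change 1.57 ± 0.15, adjusted p = 4.7e-05). The apical kinase gene aPKC averaged 77.9 ± 8.69 CPM in brat-KD and 33.4 ± 12.7 CPM in control (log2 fold change 1.22 ± 0.27, adjusted p = 0.0069). insc, whose product links spindle and polarity, averaged 326 ± 36.9 CPM in brat-KD and 144 ± 29.2 CPM in control (log2 fold change 1.17 ± 0.17, adjusted p = 0.00062). pros, the homeodomain factor that is handed to the differentiating daughter, had 537, 507, 601 and 552 CPM in brat-KD, against 1794, 2556 and 2342 CPM in control (log2 fold change -2.02 ± 0.16, adjusted p = 2.1e-05), and all control libraries lay far above the highest brat-KD library. jar, the myosin VI gene, also fell (log2 fold change -1.22 ± 0.21, adjusted p = 0.0015). numb, the Notch inhibitor that segregates beside Brat, averaged 212 ± 39.7 CPM in brat-KD and 172 ± 38.5 CPM in control (log2 fold change 0.30 ± 0.19, adjusted p = 0.28) and did not pass the test. Among 9 tested TRIM-NHL proteins and repressor partners, 0 rose and 3 fell, namely brat, the Brat partner gene pum (log2 fold change -0.51 ± 0.15, adjusted p = 0.028) and the deadenylase gene twin (log2 fold change -0.52 ± 0.15, adjusted p = 0.026). Both calls depended on single libraries, with adjusted p-values for pum of 0.061 to 0.073 without brat-KD replicate 1, 2 or 4 or control replicate 1 or 2 and for twin of 0.051 to 0.1 without brat-KD replicate 3 or 4 or control replicate 2 or 3. pum and twin did not pass when all 3 genotypes were fitted at once (adjusted p-values of 0.24 and 0.37). scrib, aPKC, insc, pros, jar, numb, pum and twin overlap another annotated gene.

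Homeobox genes, many of which give neuron types their identity, fell more often than they rose. Of 39 tested, 4 rose and 15 fell, with a median of -0.65. Fewer fell in some leave-outs, with 9 without control replicate 2 and 8 without control replicate 3. Rx, the retinal homeobox homolog, had 16.8, 25.8, 31.4 and 27.4 CPM in brat-KD, against 159.8, 205 and 234 CPM in control (log2 fold change -2.97 ± 0.23, adjusted p = 1.5e-05). Its neighbour in the genome hbn had 11.8, 13.7, 9.66 and 12.4 CPM in brat-KD, against 52.5, 103 and 113 CPM in control (log2 fold change -2.91 ± 0.28, adjusted p = 4.9e-05). The LIM-homeodomain gene Lim1 had 14.5, 15.04, 24.9 and 22.2 CPM in brat-KD, against 138, 122 and 119.6 CPM in control (log2 fold change -2.72 ± 0.22, adjusted p = 2.2e-05). The groups did not overlap in any of them, as the rule for naming members by the size of their change required. A few homeobox genes went up. ct, the cut gene, had 241, 198, 252 and 281 CPM in brat-KD, against 51.2, 74.4 and 72.8 CPM in control (log2 fold change 1.88 ± 0.19, adjusted p = 5.5e-05). The POU gene vvl had 219, 175, 143 and 139 CPM in brat-KD, against 30.1, 57.8 and 50.4 CPM in control (log2 fold change 1.87 ± 0.25, adjusted p = 0.00038). The raised number was 2 without brat-KD replicate 1 or control replicate 2 or 3.

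The neuronal end of the lineage was strongly reduced. Of 13 neuronal differentiation genes tested, 0 rose and 10 fell, with a median log2 fold change of -1.97. elav, the RNA-binding protein used as the general neuron marker, had 109, 92.1, 82.8 and 121 CPM in brat-KD, against 478, 375 and 337 CPM in control (log2 fold change -1.97 ± 0.18, adjusted p = 3.6e-05). Its relative fne had 116, 90.6, 68.4 and 69.7 CPM in brat-KD, against 515, 727 and 827 CPM in control (log2 fold change -3.001 ± 0.23, adjusted p = 1.5e-05). nerfin-1, a zinc-finger gene that keeps neurons from dedifferentiating, had 67.2, 46.5, 90.5 and 95.9 CPM in brat-KD, against 397, 349 and 309.9 CPM in control (log2 fold change -2.23 ± 0.23, adjusted p = 6.5e-05). The groups were separate for all 3 genes, and each was still read in every brat-KD library. elav and fne overlap another annotated gene.

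Genes of mature synapses fell as well. Of 27 genes of vesicles and active zones, 1 rose and 14 fell (median -2.26). brp, the active zone scaffold, had 7.41, 2.87, 6.35 and 4.61 CPM in brat-KD, against 27.7, 46.0 and 46.6 CPM in control (log2 fold change -2.91 ± 0.39, adjusted p = 0.00035). The calcium sensor gene Syt1 had 8.64, 7.77, 4.23 and 8.40 CPM in brat-KD, against 38.6, 48.9 and 57.5 CPM in control (log2 fold change -2.74 ± 0.33, adjusted p = 0.00016). Syt4, a synaptotagmin of postsynaptic and neuroendocrine vesicles, had 14.6, 13.9, 13.9 and 18.3 CPM in brat-KD, against 119.7, 116 and 96.3 CPM in control (log2 fold change -2.87 ± 0.19, adjusted p = 1.4e-05). The vesicle SNARE gene nSyb averaged 11.7 ± 6.21 CPM in brat-KD and 58.3 ± 8.70 CPM in control (log2 fold change -2.31 ± 0.36, adjusted p = 0.00094). The member raised was Snap25, at 106 ± 39.2 CPM in brat-KD and 42.9 ± 0.751 CPM in control (log2 fold change 1.31 ± 0.28, adjusted p = 0.0052), whose span overlaps 12 other genes. nSyb did not pass when all 3 genotypes were fitted at once (adjusted p = 0.08). Syt1 and Snap25 overlap another annotated gene.

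Among 34 ion channels and transmitter receptors, 0 rose and 13 fell (median -1.50). Leaving out control replicate 2 brought the number lowered to 6. The nicotinic receptor subunit gene nAChRalpha6 had 9.35, 12.3, 7.94 and 5.77 CPM in brat-KD, against 39.8, 84.8 and 98.5 CPM in control (log2 fold change -3.07 ± 0.36, adjusted p = 0.00014). The channel gene Ih had 2.998, 1.35, 1.06 and 1.32 CPM in brat-KD, against 18.4, 15.05 and 17.98 CPM in control (log2 fold change -3.34 ± 0.56, adjusted p = 0.0014). Ca-alpha1D, a voltage-gated calcium channel gene, had 0.529, 0, 0 and 0.165 CPM in brat-KD, against 8.45, 8.39 and 9.99 CPM in control, and since no brat-KD library held more than 3 counts its fall was at least 18.6-fold, reckoned against 3 counts in each brat-KD library. para, the sodium channel gene, averaged 26.01 ± 4.24 CPM in brat-KD and 20.1 ± 3.22 CPM in control (log2 fold change 0.37 ± 0.28, adjusted p = 0.37) and did not pass the test. The GABA receptor gene Rdl averaged 2.21 ± 0.862 CPM in brat-KD and 9.09 ± 6.48 CPM in control (log2 fold change -2.03 ± 0.79, adjusted p = 0.079) and passed without control replicate 1 (adjusted p = 0.0029). nAChRalpha6, Ca-alpha1D, para and Rdl overlap another annotated gene.

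Wiring molecules were lower as a class. Of 41 axon guidance and adhesion genes, 1 rose (2 without control replicate 1) and 24 fell (median -0.94). Con, a homophilic adhesion protein of motor axons and their target muscles, had 17.6, 18.2, 17.5 and 19.9 CPM in brat-KD, against 137, 132 and 119 CPM in control (log2 fold change -2.82 ± 0.17, adjusted p = 9.9e-06). The Slit receptor gene robo3 had 8.82, 5.91, 9.13 and 7.58 CPM in brat-KD, against 38.4, 48.0 and 46.2 CPM in control (log2 fold change -2.49 ± 0.29, adjusted p = 0.00013). Dscam1, known for its extensive alternative splicing, had 43.0, 37.7, 49.5 and 48.4 CPM in brat-KD, against 169, 171 and 129.6 CPM in control (log2 fold change -1.81 ± 0.17, adjusted p = 4.3e-05). The adhesion gene Fas2 averaged 44.3 ± 12.7 CPM in brat-KD and 106 ± 26.4 CPM in control (log2 fold change -1.26 ± 0.25, adjusted p = 0.0037). CadN2 was the member raised, at 89.9, 85.3, 39.3 and 61.1 CPM in brat-KD, against 10.5, 14.5 and 11.5 CPM in control (log2 fold change 2.49 ± 0.32, adjusted p = 0.00028), with no overlap between the groups. robo3 did not pass when all 3 genotypes were fitted at once (adjusted p = 0.066). Con, Dscam1, Fas2 and CadN2 overlap another annotated gene.

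Of 40 genes of the dpr, DIP, beat and side families, immunoglobulin proteins that pair on the surfaces of synaptic partners, 1 rose and 16 fell (median -1.72). The number that fell was 9 without control replicate 2 and 6 without control replicate 3. dpr7 had 2.82, 4.56, 5.43 and 1.48 CPM in brat-KD, against 53.8, 78.2 and 65.3 CPM in control (log2 fold change -4.18 ± 0.39, adjusted p = 4.3e-05). beat-Vb was the exception, with 78.8, 84.0, 38.5 and 59.0 CPM in brat-KD, against 13.04, 14.5 and 14.2 CPM in control (log2 fold change 2.22 ± 0.30, adjusted p = 0.00035). Of the 13 glial genes, 3 fell. The excitatory amino acid transporter gene Eaat2 had 2.47, 0.676, 0.397 and 0 CPM in brat-KD, against 38.6, 45.5 and 38.8 CPM in control (log2 fold change -5.54 ± 0.74, adjusted p = 0.00034). The glial switch gene gcm averaged 6.17 ± 2.69 CPM in brat-KD and 27.2 ± 2.70 CPM in control (log2 fold change -2.14 ± 0.43, adjusted p = 0.0037). The septate junction gene Nrx-IV averaged 112 ± 9.66 CPM in brat-KD and 230.4 ± 32.4 CPM in control (log2 fold change -1.04 ± 0.15, adjusted p = 0.00052). The matrix peroxidase gene Pxn, often used for hemocytes, had 1.59, 0.845, 0 and 0.824 CPM in brat-KD, against 33.6, 87.4 and 78.1 CPM in control (log2 fold change -6.38 ± 0.65, adjusted p = 6e-05), while defining hemocyte genes were near 0 in both genotypes. gcm did not pass when all 3 genotypes were fitted at once (adjusted p = 0.16). dpr7, beat-Vb, gcm, Nrx-IV and Pxn overlap another annotated gene.

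**Figure D3:**
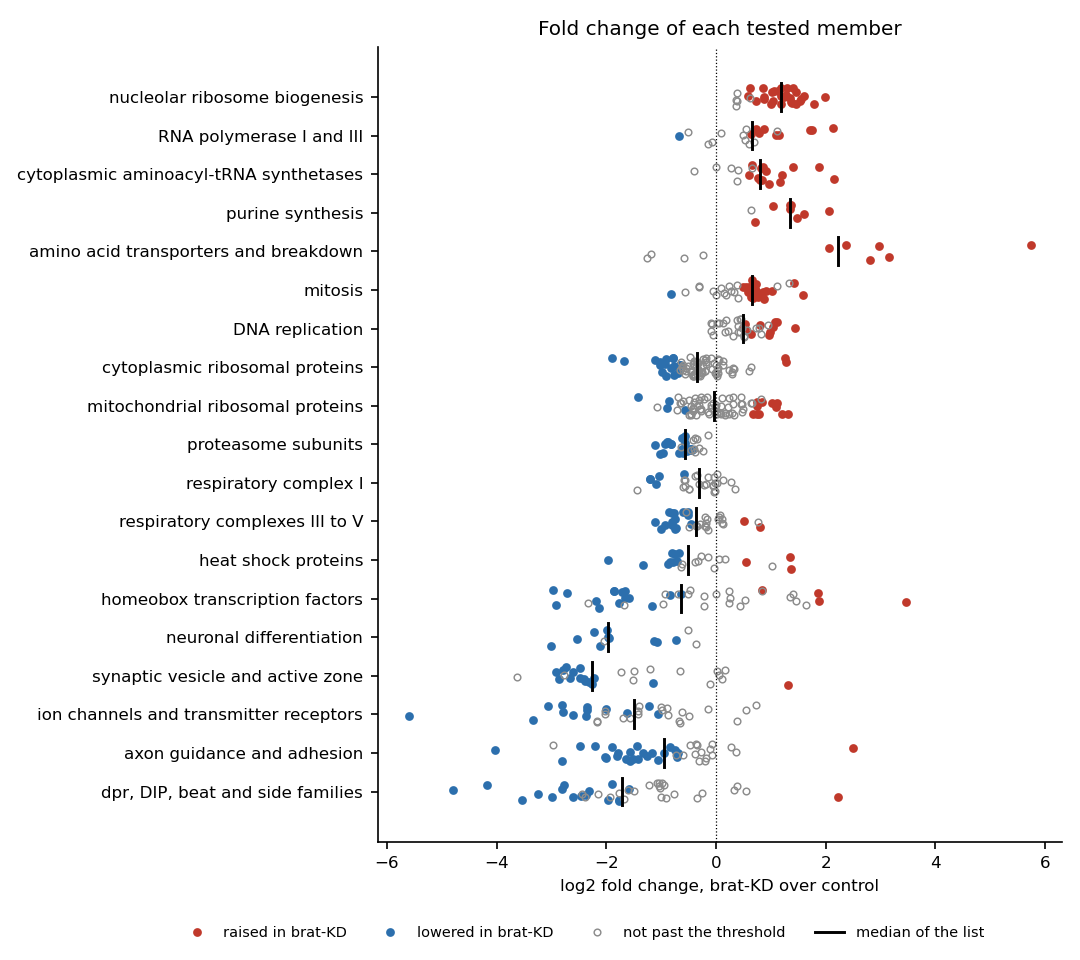
Log2 fold change, brat-KD over control, of each tested member of 19 gene lists; filled points passed the threshold (adjusted p under 0.05), open points did not, and vertical bars are list medians. Medians lie right of 0 for the nucleolar, RNA polymerase, synthetase, purine, mitosis and replication lists and left of 0 for the neuronal lists, the proteasome and the respiratory complexes.

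Nucleolar genes rose nearly as a block. Of 33 ribosome biogenesis genes, 28 rose and 0 fell, and all had a positive log2 fold change (median 1.18). Fib, the rRNA methyltransferase of box C/D particles, had 698, 731, 746 and 571 CPM in brat-KD, against 221, 326 and 353 CPM in control (log2 fold change 1.19 ± 0.19, adjusted p = 0.0009). Of its partners in the particle, nop5 averaged 707 ± 54.4 CPM in brat-KD and 312 ± 67.8 CPM in control (log2 fold change 1.18 ± 0.17, adjusted p = 0.00061) and Nop56 averaged 528 ± 46.4 CPM in brat-KD and 292 ± 21.9 CPM in control (log2 fold change 0.85 ± 0.14, adjusted p = 0.001). The largest rise was in kz, an RNA helicase gene, at 105, 113, 109 and 83.9 CPM in brat-KD, against 23.5, 30.6 and 22.9 CPM in control (log2 fold change 1.99 ± 0.20, adjusted p = 5.2e-05). RIOK1, a kinase gene of small subunit maturation, came next at 52.2, 70.4, 43.1 and 53.2 CPM in brat-KD, against 14.5, 16.2 and 16.9 CPM in control (log2 fold change 1.79 ± 0.24, adjusted p = 0.00041). The summed level of the list was 10395, 10723, 9395 and 7999 CPM in brat-KD, against 4177, 4385 and 4537 CPM in control, with no overlap between the groups. nop5 did not pass when all 3 genotypes were fitted at once (adjusted p = 0.06). Fib, nop5 and kz overlap another annotated gene.

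The polymerases that make rRNA and tRNA followed in part. Of 20 RNA polymerase I and III genes, 9 rose (5 without brat-KD replicate 2) and 1 fell. Polr1A, the largest subunit of polymerase I, had 394, 352, 368 and 364 CPM in brat-KD, against 80.6, 92.2 and 78.3 CPM in control (log2 fold change 2.14 ± 0.14, adjusted p = 1e-05). Polr1B, the second-largest, had 159, 147, 121 and 112 CPM in brat-KD, against 59.5, 33.1 and 28.2 CPM in control (log2 fold change 1.74 ± 0.26, adjusted p = 0.00074). The polymerase III subunit gene Polr3K averaged 101 ± 23.7 CPM in brat-KD and 30.5 ± 11.2 CPM in control (log2 fold change 1.72 ± 0.29, adjusted p = 0.0015). The initiation factor gene Tif-IA averaged 84.8 ± 9.88 CPM in brat-KD and 79.2 ± 6.94 CPM in control (log2 fold change 0.10 ± 0.16, adjusted p = 0.71) and did not pass. The member that fell, Polr3I (log2 fold change -0.68 ± 0.21, adjusted p = 0.029), had adjusted p-values of 0.062 to 0.15 without brat-KD replicate 1, 3 or 4 or control replicate 2 or 3. Polr3I did not pass when all 3 genotypes were fitted at once (adjusted p = 0.7). Polr1A, Polr3K, Tif-IA and Polr3I overlap another annotated gene.

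The structural proteins of the ribosome did not follow the genes that assemble it. Of 83 cytoplasmic ribosomal protein genes, 2 rose and 17 fell, with a median of -0.35. The lowered number depended on the libraries used, with 35 without brat-KD replicate 2, 11 without brat-KD replicate 3 or 4 or control replicate 2 and 6 without control replicate 3. RpL38 had 164, 239, 183 and 179 CPM in brat-KD, against 582, 728 and 827 CPM in control (log2 fold change -1.90 ± 0.17, adjusted p = 3.8e-05). RpL41, which encodes a very short peptide, had 1326, 2644, 1905 and 1792 CPM in brat-KD, against 4280.5, 6060.2 and 8069 CPM in control (log2 fold change -1.68 ± 0.27, adjusted p = 0.001). RpL30 averaged 644 ± 166 CPM in brat-KD and 1402 ± 247 CPM in control (log2 fold change -1.12 ± 0.21, adjusted p = 0.0025). The 2 that rose were paralogs whose yeast counterparts act in ribosome assembly. RpL7-like averaged 216 ± 70.3 CPM in brat-KD and 88.5 ± 20.0 CPM in control (log2 fold change 1.28 ± 0.25, adjusted p = 0.0035). RpLP0-like averaged 195 ± 40.5 CPM in brat-KD and 82.0 ± 29.8 CPM in control (log2 fold change 1.25 ± 0.26, adjusted p = 0.0047). RpL7 itself, looked up after these values were seen, averaged 2753 ± 674 CPM in brat-KD and 2684 ± 215 CPM in control (log2 fold change 0.04 ± 0.21, adjusted p = 0.92). The summed level of the whole list was 136560, 225006, 169339 and 136423 CPM in brat-KD, against 174074, 203951 and 250544 CPM in control, and the groups overlapped. RpL41, RpL30, RpL7-like and RpLP0-like overlap another annotated gene.

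Mitochondrial ribosomal proteins were mixed. Of 72 tested, 11 rose and 4 fell, with a median of -0.04, so the raised share was near that of all genes. The raised number was 7 without brat-KD replicate 1 or 2 or control replicate 2, and the lowered number was 2 without brat-KD replicate 1, 11 without control replicate 1 and 0 without control replicate 2 or 3. Large-subunit members led the rises. mRpL45 averaged 116 ± 31.2 CPM in brat-KD and 46.9 ± 3.02 CPM in control (log2 fold change 1.31 ± 0.22, adjusted p = 0.0015). mRpL28 averaged 152 ± 21.6 CPM in brat-KD and 66.1 ± 5.33 CPM in control (log2 fold change 1.204 ± 0.17, adjusted p = 0.00043). mRpL28 did not pass when all 3 genotypes were fitted at once (adjusted p = 0.43). mRpL28 overlaps another annotated gene.

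Translation factors rose more often than they fell, and the 2 genes for elongation factor eEF1alpha went in opposite directions. Of 42 tested, 11 rose and 3 fell. Leaving out single libraries gave 7 without brat-KD replicate 1 or 3 and 4 without control replicate 2 or 3 as the number raised. eIF6, which keeps immature large subunits from joining, averaged 301 ± 77.0 CPM in brat-KD and 118 ± 38.3 CPM in control (log2 fold change 1.36 ± 0.26, adjusted p = 0.0031). eIF3j averaged 233 ± 35.6 CPM in brat-KD and 111 ± 8.82 CPM in control (log2 fold change 1.07 ± 0.16, adjusted p = 0.00063). eEF1alpha2 had 52.9, 40.2, 84.8 and 54.0 CPM in brat-KD, against 743, 1009.6 and 1035 CPM in control (log2 fold change -3.998 ± 0.25, adjusted p = 1e-05). eEF1alpha1, named here after its values were seen, had 13222, 17878, 15103 and 11136 CPM in brat-KD, against 9944, 7658 and 8304 CPM in control (log2 fold change 0.73 ± 0.23, adjusted p = 0.033), with adjusted p-values of 0.051 to 0.1 without brat-KD replicate 1 or 3 or control replicate 2 or 3. The groups did not overlap for either gene. eEF1alpha1 did not pass when all 3 genotypes were fitted at once (adjusted p = 0.056). eIF6 and eEF1alpha1 overlap another annotated gene.

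Enzymes that charge tRNAs rose as a class. Of 20 cytoplasmic aminoacyl-tRNA synthetase genes, 14 rose and 0 fell (median 0.81). IleRS, for isoleucine, had 510.5, 519, 467 and 347 CPM in brat-KD, against 99.7, 102 and 109 CPM in control (log2 fold change 2.16 ± 0.17, adjusted p = 2e-05). ValRS, for valine, had 344, 361, 263 and 275 CPM in brat-KD, against 67.4, 95.7 and 90.8 CPM in control (log2 fold change 1.87 ± 0.18, adjusted p = 5.2e-05). LeuRS, for leucine, had 330.3, 306, 256 and 242 CPM in brat-KD, against 142, 95.8 and 82.3 CPM in control (log2 fold change 1.41 ± 0.21, adjusted p = 0.00061). The largest rises of the class were thus in the synthetases of the 3 branched-chain amino acids, and a transporter and the aminotransferase for those amino acids also rose.

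Some genes of amino acid transport and breakdown rose. Of 18 in the list 10 were tested, of which 6 rose, 0 fell and 4 had lower values without passing (median 2.22 over those with enough reads, 0.78 without control replicate 3 and -0.25 with no filter on low counts). The leucine transporter gene mnd had 400.5, 418, 310.5 and 237 CPM in brat-KD, against 34.7, 42.9 and 53.05 CPM in control (log2 fold change 2.97 ± 0.24, adjusted p = 2e-05). JhI-21, a transporter of the same family, had 399.6, 332, 363 and 280.4 CPM in brat-KD, against 22.4, 52.1 and 40.4 CPM in control (log2 fold change 3.15 ± 0.27, adjusted p = 2.9e-05). Bcat, the branched-chain aminotransferase gene, had 53.4, 47.5, 20.0 and 24.4 CPM in brat-KD, against 0, 1.13 and 0.666 CPM in control (log2 fold change 5.74 ± 0.73, adjusted p = 0.00025), and it was nearly silent in control. The arginine transporter gene slif averaged 2.35 ± 1.31 CPM in brat-KD and 5.35 ± 2.54 CPM in control (log2 fold change -1.18 ± 0.85, adjusted p = 0.34) and did not pass. JhI-21 and slif overlap another annotated gene.

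Genes of purine synthesis rose, and those of pyrimidine synthesis did so in part. Of 9 purine genes, 8 rose and 0 fell (median 1.36). Pfas had 241, 190.2, 231 and 193 CPM in brat-KD, against 57.5, 74.8 and 77.7 CPM in control (log2 fold change 1.61 ± 0.17, adjusted p = 7.5e-05). Paics averaged 86.8 ± 20.8 CPM in brat-KD and 42.4 ± 19.9 CPM in control (log2 fold change 1.04 ± 0.30, adjusted p = 0.025), with adjusted p-values of 0.074 to 0.081 without brat-KD replicate 1 or 2 or control replicate 2 or 3. Of 9 pyrimidine and deoxynucleotide genes, 3 rose, and these cover the path from the first to the last step of uridylate synthesis. r, the multifunctional enzyme of the first steps, had 327, 353, 309.5 and 269 CPM in brat-KD, against 60.6, 85.8 and 69.9 CPM in control (log2 fold change 2.12 ± 0.17, adjusted p = 2e-05). Dhod, which acts after it, averaged 114 ± 15.6 CPM in brat-KD and 47.1 ± 7.07 CPM in control (log2 fold change 1.27 ± 0.18, adjusted p = 0.00056). r-l, the enzyme of the last steps, had 189.9, 189.9, 165 and 152 CPM in brat-KD, against 7.90, 39.7 and 41.5 CPM in control (log2 fold change 2.55 ± 0.43, adjusted p = 0.0014), with control replicate 1 far below the other control libraries. Neither subunit gene of ribonucleotide reductase, which makes deoxynucleotides, passed the test. RnrL averaged 270.1 ± 30.7 CPM in brat-KD and 209 ± 31.7 CPM in control (log2 fold change 0.37 ± 0.16, adjusted p = 0.1). RnrS averaged 172 ± 20.9 CPM in brat-KD and 204 ± 4.63 CPM in control (log2 fold change -0.25 ± 0.14, adjusted p = 0.22). RnrL passed without control replicate 1 (adjusted p = 0.03). Pfas, r, Dhod and r-l overlap another annotated gene.

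One-carbon and pentose phosphate enzymes that feed these pathways rose in part. Shmt, serine hydroxymethyltransferase, had 346, 415, 274 and 300.4 CPM in brat-KD, against 91.1, 89.5 and 61.9 CPM in control (log2 fold change 2.04 ± 0.20, adjusted p = 5.1e-05). Its list of 12 genes held 4 that rose (2 without brat-KD replicate 1 or control replicate 3) and 1 that fell. Of 6 pentose phosphate genes, 3 rose: Pgd, phosphogluconate dehydrogenase, had 61.2, 80.9, 74.5 and 49.4 CPM in brat-KD, against 6.43, 17.2 and 15.98 CPM in control (log2 fold change 2.32 ± 0.35, adjusted p = 0.00067). The transketolase-related gene CG8036 had 962, 1062, 1097 and 909.6 CPM in brat-KD, against 370.2, 356 and 406 CPM in control (log2 fold change 1.42 ± 0.14, adjusted p = 6e-05). Rpi, ribose phosphate isomerase, averaged 165 ± 14.9 CPM in brat-KD and 96.7 ± 4.15 CPM in control (log2 fold change 0.77 ± 0.14, adjusted p = 0.0023). Zw, the enzyme that opens the oxidative branch, averaged 22.4 ± 4.66 CPM in brat-KD and 15.1 ± 8.71 CPM in control (log2 fold change 0.56 ± 0.40, adjusted p = 0.34) and passed without control replicate 1 (adjusted p = 0.014). Shmt, Pgd, CG8036, Rpi and Zw overlap another annotated gene.

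**Figure D4:**
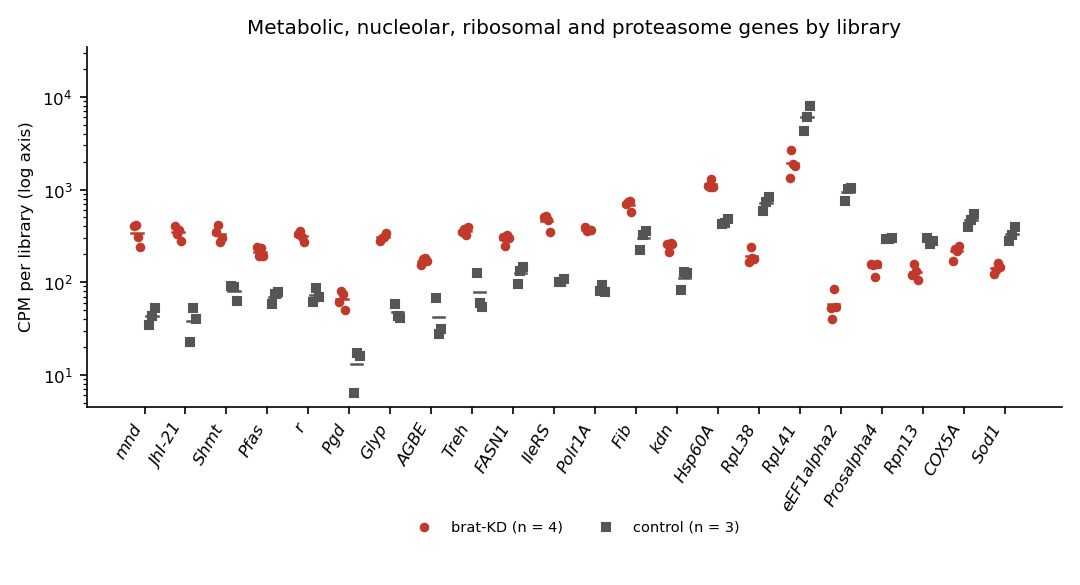
CPM per library on a log axis for 22 metabolic, nucleolar, ribosomal and proteasome genes; circles are the 4 brat-KD libraries, squares the 3 control libraries and short lines the group means. From mnd to Hsp60A the brat-KD libraries lie above control, and from RpL38 to Sod1 below.

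Genes of sugar storage and uptake rose more often than they fell. Of 10 trehalose, glycogen and sugar transport genes, 6 rose and 1 fell (median 1.47). Treh, which splits the blood sugar trehalose, had 351, 373, 326 and 390.4 CPM in brat-KD, against 125, 59.6 and 53.5 CPM in control (log2 fold change 2.18 ± 0.27, adjusted p = 0.00023). Genes for glycogen breakdown and for its synthesis both rose. Glyp, glycogen phosphorylase, had 279, 298, 304 and 338 CPM in brat-KD, against 58.6, 43.5 and 41.1 CPM in control (log2 fold change 2.68 ± 0.17, adjusted p = 1e-05). AGBE, the branching enzyme, had 152, 178, 184 and 171 CPM in brat-KD, against 67.6, 27.2 and 31.3 CPM in control (log2 fold change 2.03 ± 0.29, adjusted p = 0.00053). The trehalose transporter gene Tret1-1 averaged 136 ± 11.9 CPM in brat-KD and 46.1 ± 18.8 CPM in control (log2 fold change 1.57 ± 0.25, adjusted p = 0.00097). The glucose transporter gene Glut1 had 18.7, 13.3, 17.6 and 13.3 CPM in brat-KD, against 76.8, 97.1 and 74.1 CPM in control (log2 fold change -2.39 ± 0.22, adjusted p = 4.1e-05). Treh, Tret1-1 and Glut1 overlap another annotated gene.

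Lipid genes were less uniform. Of 20 tested, 8 rose (5 without brat-KD replicate 1 or control replicate 3) and 3 fell. The fatty acid synthase gene FASN1 had 304, 245, 319 and 301 CPM in brat-KD, against 96.2, 131 and 147 CPM in control (log2 fold change 1.23 ± 0.18, adjusted p = 0.00053). The lipid droplet gene Lsd-2 averaged 57.9 ± 8.41 CPM in brat-KD and 27.9 ± 8.02 CPM in control (log2 fold change 1.05 ± 0.24, adjusted p = 0.0086). Fpps, an enzyme of isoprenoid synthesis, averaged 17.95 ± 2.64 CPM in brat-KD and 45.2 ± 5.56 CPM in control (log2 fold change -1.33 ± 0.24, adjusted p = 0.0023). Lpin, a phosphatidate phosphatase, averaged 62.0 ± 8.17 CPM in brat-KD and 120.0 ± 13.6 CPM in control (log2 fold change -0.95 ± 0.17, adjusted p = 0.0019). ACC, which makes the precursor of fatty acids, averaged 184 ± 9.11 CPM in brat-KD and 155 ± 26.6 CPM in control (log2 fold change 0.25 ± 0.15, adjusted p = 0.24) and passed without control replicate 1 (adjusted p = 0.041). Lpin did not pass when all 3 genotypes were fitted at once (adjusted p = 0.12). Fpps, Lpin and ACC overlap another annotated gene.

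Genes of the tricarboxylic acid cycle and of the respiratory chain were examined as separate lists. Of 16 tricarboxylic acid cycle genes, 6 rose (3 without control replicate 3) and 0 fell. kdn, citrate synthase, had 261, 212, 266 and 257 CPM in brat-KD, against 81.9, 130.1 and 125 CPM in control (log2 fold change 1.15 ± 0.18, adjusted p = 0.001). Mdh2 averaged 131 ± 16.04 CPM in brat-KD and 79.0 ± 6.24 CPM in control (log2 fold change 0.73 ± 0.16, adjusted p = 0.0061). Of 29 complex I genes, 0 rose and 5 fell (9 without control replicate 1, 3 without control replicate 2 and 2 without control replicate 3), a lowered share of 17.2% that is near the 14.3% over all genes. Of 36 genes of complexes II to V and cytochrome c, 2 rose and 15 fell (8 without brat-KD replicate 1 or control replicate 2 and 7 without control replicate 3). COX5A, a cytochrome oxidase subunit, had 167, 229, 218 and 247 CPM in brat-KD, against 394, 465 and 542 CPM in control (log2 fold change -1.12 ± 0.17, adjusted p = 0.00069). COX8 averaged 58.8 ± 11.5 CPM in brat-KD and 107 ± 6.79 CPM in control (log2 fold change -0.86 ± 0.19, adjusted p = 0.0059). SdhA, shared between the cycle and the chain, averaged 308 ± 38.9 CPM in brat-KD and 178 ± 29.1 CPM in control (log2 fold change 0.79 ± 0.16, adjusted p = 0.0043). Both chain lists had medians near -0.3 (complex I -0.30, the others -0.36), so most falls were shallow. COX5A did not pass when all 3 genotypes were fitted at once (adjusted p = 0.064). COX5A and SdhA overlap another annotated gene.

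Proteasome genes fell together by a small amount. Of 32 tested, 0 rose and 22 fell, every member had a negative log2 fold change, and the median was -0.57. The lowered number was 13 without brat-KD replicate 1, 10 without control replicate 2 and 12 without control replicate 3. Rpn13, a ubiquitin receptor, had 118, 159, 133 and 105 CPM in brat-KD, against 298, 261 and 278 CPM in control (log2 fold change -1.12 ± 0.16, adjusted p = 0.00054). Prosalpha4, a core subunit, had 158, 153, 113 and 156 CPM in brat-KD, against 292, 292 and 299 CPM in control (log2 fold change -1.02 ± 0.15, adjusted p = 0.00059). Rpt2, an ATPase of the base, averaged 164 ± 26.1 CPM in brat-KD and 321 ± 22.7 CPM in control (log2 fold change -0.97 ± 0.15, adjusted p = 0.001). The summed level of the list was 5460, 6545, 5911 and 6230 CPM in brat-KD, against 8367, 9259 and 9435 CPM in control, and the groups did not overlap. Rpt2 overlaps another annotated gene.

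Chaperone genes split. Of 22 heat shock and cognate genes, 3 rose and 9 fell. The lowered number was 4 without brat-KD replicate 1, 3 without brat-KD replicate 3 or 4 or control replicate 3 and 5 without control replicate 1. Chaperones of the mitochondrial matrix rose. Hsc70-5 had 631, 545, 627 and 650.2 CPM in brat-KD, against 307, 197 and 206 CPM in control (log2 fold change 1.37 ± 0.18, adjusted p = 0.00032). Hsp60A had 1091, 1069.9, 1304 and 1076 CPM in brat-KD, against 421, 431 and 478 CPM in control (log2 fold change 1.36 ± 0.15, adjusted p = 9.2e-05). Small heat shock proteins were among those that fell. Hsp67Ba averaged 176 ± 33.4 CPM in brat-KD and 690.3 ± 169 CPM in control (log2 fold change -1.97 ± 0.20, adjusted p = 6e-05). Hsp67Bc averaged 108 ± 29.1 CPM in brat-KD and 273 ± 129 CPM in control (log2 fold change -1.33 ± 0.30, adjusted p = 0.0072). Of 14 CCT chaperonin and prefoldin genes, 3 rose, which were all CCT subunits, and 3 fell, which were all prefoldin subunits. Each share was 21.4%, against 13.8% raised and 14.3% lowered over all genes. CCT3 rose most (log2 fold change 0.60 ± 0.14, adjusted p = 0.0087). Pfdn5 fell most (log2 fold change -1.06 ± 0.18, adjusted p = 0.0014). Without control replicate 3 the raised number was 1. CCT3 did not pass when all 3 genotypes were fitted at once (adjusted p = 0.091). Hsp67Ba and Pfdn5 overlap another annotated gene.

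Antioxidant genes rose and fell at shares near those of all genes. Of 22 tested, 4 rose (18.2%, against 13.8% over all genes) and 4 fell (18.2%, against 14.3%). The raised number was 7 without control replicate 1. The lowered number was 2 without brat-KD replicate 1, 2 or 3. Of those that rose, 3 were glutathione transferase genes of the GstD cluster. GstD1 had 124, 102, 167 and 175 CPM in brat-KD, against 58.2, 45.1 and 50.2 CPM in control (log2 fold change 1.48 ± 0.22, adjusted p = 0.00063). GstD3 averaged 27.0 ± 3.94 CPM in brat-KD and 5.15 ± 5.13 CPM in control (log2 fold change 2.40 ± 0.59, adjusted p = 0.011). GstD9 averaged 20.6 ± 6.35 CPM in brat-KD and 2.203 ± 1.399 CPM in control (log2 fold change 3.21 ± 0.56, adjusted p = 0.0017). Sod1, the cytoplasmic superoxide dismutase gene, had 122, 135, 161 and 146 CPM in brat-KD, against 281, 322 and 390.2 CPM in control (log2 fold change -1.23 ± 0.16, adjusted p = 0.00027). The peroxiredoxin gene Prx2 averaged 254 ± 49.6 CPM in brat-KD and 453 ± 32.1 CPM in control (log2 fold change -0.84 ± 0.16, adjusted p = 0.0031). GstD genes are close relatives, so reads that fit several of them may have been counted for any.

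V-ATPase subunits, which acidify lysosomes, held members that rose and members that fell. Of 19 tested, 8 rose and 3 fell. Vha100-2, a form of the membrane subunit a, had 97.9, 95.3, 136 and 97.4 CPM in brat-KD, against 41.1, 11.8 and 24.2 CPM in control (log2 fold change 2.07 ± 0.36, adjusted p = 0.0017). VhaAC39-1 had 184, 188, 174 and 148 CPM in brat-KD, against 45.4, 57.1 and 60.1 CPM in control (log2 fold change 1.68 ± 0.17, adjusted p = 5.5e-05). Vha68-1, a form of the catalytic subunit, averaged 14.4 ± 2.60 CPM in brat-KD and 57.4 ± 29.1 CPM in control (log2 fold change -1.999 ± 0.37, adjusted p = 0.0026). Relatives of the same subunit went in opposite directions. VhaAC45RP averaged 39.0 ± 5.89 CPM in brat-KD and 119.8 ± 25.8 CPM in control (log2 fold change -1.62 ± 0.20, adjusted p = 0.00022). VhaAC45 averaged 135 ± 19.9 CPM in brat-KD and 45.7 ± 6.24 CPM in control (log2 fold change 1.56 ± 0.18, adjusted p = 0.00014). Of 18 cytochrome P450 genes tested, 0 rose and 0 fell, and 1 rose without control replicate 1. VhaAC45RP did not pass when all 3 genotypes were fitted at once (adjusted p = 0.19). Vha100-2 overlaps another annotated gene.

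Cell division genes were higher. Of 38 mitosis genes, 22 rose (13 without control replicate 3) and 1 fell (median 0.65). Of 36 DNA replication genes, 11 rose (7 without brat-KD replicate 1 or control replicate 3) and 0 fell (median 0.48). The shares themselves were not compared by a test. CycB3 had 429, 402, 498 and 479 CPM in brat-KD, against 119.7, 184 and 149 CPM in control (log2 fold change 1.58 ± 0.17, adjusted p = 9.6e-05). thr, a separase subunit, averaged 114.5 ± 6.08 CPM in brat-KD and 42.8 ± 9.94 CPM in control (log2 fold change 1.42 ± 0.19, adjusted p = 0.00039). CycB averaged 466 ± 104 CPM in brat-KD and 292 ± 36.5 CPM in control (log2 fold change 0.67 ± 0.19, adjusted p = 0.021), with adjusted p-values of 0.056 to 0.085 without brat-KD replicate 3 or 4 or control replicate 3. stg, the Cdc25 phosphatase that times mitosis, averaged 253 ± 60.3 CPM in brat-KD and 210.5 ± 27.8 CPM in control (log2 fold change 0.27 ± 0.20, adjusted p = 0.36) and did not pass. In replication, PolE1 had 113, 121, 126 and 106 CPM in brat-KD, against 30.5, 58.4 and 39.7 CPM in control (log2 fold change 1.43 ± 0.22, adjusted p = 0.00086). The helicase subunit gene Mcm2 averaged 421 ± 51.9 CPM in brat-KD and 240.1 ± 31.7 CPM in control (log2 fold change 0.81 ± 0.15, adjusted p = 0.0028). The sliding clamp gene PCNA had 380.2, 539.8, 458 and 429 CPM in brat-KD, against 373, 454 and 520.3 CPM in control (log2 fold change 0.01 ± 0.17, adjusted p = 0.97), with overlapping groups and a sign that turned without brat-KD replicate 2 (-0.09) or control replicate 1 (-0.11). thr overlaps another annotated gene.

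Genes that control the entry to S phase moved in both directions. Of 16 tested genes, 4 rose (25.0%, against 13.8% over all genes, and 2 without control replicate 3). The number that fell was 3 (18.8%, against 14.3% over all genes). CycE had 193, 147, 184 and 207 CPM in brat-KD, against 99.2, 91.0 and 77.9 CPM in control (log2 fold change 1.03 ± 0.17, adjusted p = 0.001). CycD averaged 53.4 ± 7.80 CPM in brat-KD and 28.9 ± 5.14 CPM in control (log2 fold change 0.88 ± 0.22, adjusted p = 0.013), with adjusted p-values of 0.0504 without brat-KD replicate 1 and 0.058 without control replicate 3. dap, the cyclin-dependent kinase inhibitor that marks cells leaving the cycle, had 17.99, 21.6, 15.6 and 34.4 CPM in brat-KD, against 72.7, 71.0 and 71.0 CPM in control (log2 fold change -1.68 ± 0.27, adjusted p = 0.0011). The repressive E2F gene E2f2 averaged 44.1 ± 2.48 CPM in brat-KD and 87.0 ± 25.8 CPM in control (log2 fold change -0.98 ± 0.21, adjusted p = 0.0053). The largest rise of the list was in trbl, a pseudokinase gene that promotes turnover of the Cdc25 phosphatase (log2 fold change 2.02 ± 0.36, adjusted p = 0.002). Of 14 apoptosis genes, 0 rose and 2 fell (1 and 4 without control replicate 1). The lowered share of 14.3% was the same as over all genes. Those that fell were an activator and an inhibitor of cell death. skl, the activator, averaged 5.91 ± 3.33 CPM in brat-KD and 28.04 ± 9.67 CPM in control (log2 fold change -2.24 ± 0.47, adjusted p = 0.0047). Diap1, the inhibitor, averaged 255 ± 15.6 CPM in brat-KD and 484 ± 19.7 CPM in control (log2 fold change -0.92 ± 0.12, adjusted p = 0.00035). The other activators did not pass. rpr averaged 3.36 ± 0.401 CPM in brat-KD and 8.10 ± 2.87 CPM in control (log2 fold change -1.26 ± 0.60, adjusted p = 0.14) and passed without control replicate 1 (adjusted p = 0.04). hid averaged 4.78 ± 0.865 CPM in brat-KD and 2.45 ± 1.59 CPM in control (log2 fold change 0.98 ± 0.77, adjusted p = 0.39). CycD and skl did not pass when all 3 genotypes were fitted at once (adjusted p-values of 0.075 and 0.16). CycE, E2f2 and Diap1 overlap another annotated gene.

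Chromatin regulators as a class stayed near the shares of all genes. Of 32 Polycomb, Trithorax and remodeler genes, 7 rose (21.9%, against 13.8% over all genes). The number that fell was 4 (12.5%, against 14.3%), and the median was 0.01. The raised number was 2 without brat-KD replicate 1 or 3, 4 without brat-KD replicate 4 and 3 without control replicate 3. Genes of the Polycomb complex that methylates histone H3 were among the raised. esc averaged 63.2 ± 5.79 CPM in brat-KD and 26.5 ± 4.12 CPM in control (log2 fold change 1.25 ± 0.20, adjusted p = 0.0011). Pcl averaged 140.5 ± 19.6 CPM in brat-KD and 71.2 ± 3.35 CPM in control (log2 fold change 0.98 ± 0.16, adjusted p = 0.0013). Bap60, a subunit of the Brahma remodeler, averaged 299 ± 18.8 CPM in brat-KD and 471 ± 68.8 CPM in control (log2 fold change -0.65 ± 0.14, adjusted p = 0.0057). The remodeler's ATPase gene brm averaged 360.4 ± 50.2 CPM in brat-KD and 359 ± 72.6 CPM in control (log2 fold change 0.00 ± 0.17, adjusted p = 0.99). esc and brm overlap another annotated gene.

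In the insulin and TOR pathway, whose list holds activators and inhibitors, 8 of 21 genes rose (5 without control replicate 3) and 1 fell. The largest rise was in the translation repressor gene Thor, which is given below. ImpL2, a secreted protein that binds insulin-like peptides and dampens the pathway, had 382, 461, 283 and 187 CPM in brat-KD, against 34.0, 9.21 and 7.77 CPM in control (log2 fold change 4.28 ± 0.52, adjusted p = 0.00021). Rheb, the GTPase that activates TOR, had 27.2, 28.7, 16.5 and 26.9 CPM in brat-KD, against 44.8, 63.4 and 72.6 CPM in control (log2 fold change -1.28 ± 0.26, adjusted p = 0.0042). Neither ImpL2 nor Rheb had overlapping groups, which the rule for naming members by the size of their change required. In the Myc network the glucose-sensing partner Mondo averaged 90.4 ± 22.1 CPM in brat-KD and 36.1 ± 9.81 CPM in control (log2 fold change 1.32 ± 0.26, adjusted p = 0.0032). Max, the dimerization partner of Myc, averaged 70.9 ± 15.8 CPM in brat-KD and 55.0 ± 9.22 CPM in control (log2 fold change 0.37 ± 0.22, adjusted p = 0.24). Mnt, which competes for Max, averaged 43.6 ± 9.23 CPM in brat-KD and 50.2 ± 9.70 CPM in control (log2 fold change -0.20 ± 0.23, adjusted p = 0.56). Neither passed the test. ImpL2, Mondo and Max overlap another annotated gene.

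Few genes of the Notch pathway, which keeps neuroblasts self-renewing, passed the test. Of 22 tested, 1 rose (4.5%) and 3 fell (13.6%, near the 14.3% over all genes). The raised number was 0 without brat-KD replicate 1 or 4 or control replicate 2 or 3, 2 without brat-KD replicate 2 and 3 without control replicate 1. The lowered number was 1 without brat-KD replicate 1 or control replicate 3 and 5 without control replicate 1. The receptor gene N averaged 313 ± 48.0 CPM in brat-KD and 246 ± 59.9 CPM in control (log2 fold change 0.35 ± 0.19, adjusted p = 0.2). The ligand gene Delta averaged 100.5 ± 18.8 CPM in brat-KD and 68.1 ± 15.4 CPM in control (log2 fold change 0.56 ± 0.21, adjusted p = 0.071). Neither passed with all libraries. Delta had adjusted p-values of 0.032 without brat-KD replicate 2 and 0.0096 without control replicate 1, and N had one of 0.019 without control replicate 1. The target gene E(spl)mgamma-HLH had 31.4, 26.02, 56.5 and 67.2 CPM in brat-KD, against 21.7, 40.6 and 58.6 CPM in control (log2 fold change 0.17 ± 0.39, adjusted p = 0.79), with overlapping groups and a negative sign without brat-KD replicate 4 (-0.08) or control replicate 1 (-0.12). E(spl)m7-HLH, of the same complex, averaged 10.2 ± 2.54 CPM in brat-KD and 41.1 ± 17.4 CPM in control (log2 fold change -2.001 ± 0.37, adjusted p = 0.0024) and fell.

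Other pathways held single large changes. Of 20 ecdysone response and nuclear receptor genes, 5 rose and 3 fell (1 without control replicate 3). tai, the ecdysone receptor coactivator, had 171, 177, 173 and 216 CPM in brat-KD, against 31.4, 39.5 and 39.5 CPM in control (log2 fold change 2.32 ± 0.17, adjusted p = 1.5e-05). Hr51, a nuclear receptor of developing neurons, had 1.59, 0.845, 0.132 and 1.81 CPM in brat-KD, against 24.4, 17.2 and 20.2 CPM in control (log2 fold change -4.23 ± 0.70, adjusted p = 0.0012). Of 20 EGFR and FGF pathway genes, 4 rose (20.0%, against 13.8% over all genes) and 1 fell (5.0%, and 3 genes without control replicate 1). Egfr averaged 58.1 ± 6.81 CPM in brat-KD and 26.3 ± 10.9 CPM in control (log2 fold change 1.14 ± 0.27, adjusted p = 0.01). The FGF ligand gene pyr averaged 38.7 ± 4.88 CPM in brat-KD and 12.4 ± 1.51 CPM in control (log2 fold change 1.64 ± 0.26, adjusted p = 0.001). rl, the MAP kinase, averaged 51.8 ± 6.15 CPM in brat-KD and 112 ± 26.2 CPM in control (log2 fold change -1.12 ± 0.19, adjusted p = 0.0016). Egfr did not pass when all 3 genotypes were fitted at once (adjusted p = 0.19). tai, Egfr and rl overlap another annotated gene.

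Of 32 Wnt, Dpp and Hedgehog pathway genes, 1 rose (3.1%) and 5 fell (15.6%, near the 14.3% over all genes). The number raised was 0 without brat-KD replicate 1, 3 or 4 or control replicate 2 and 7 without control replicate 1. Wnt4 had 10.6, 9.63, 16.8 and 15.7 CPM in brat-KD, against 73.4, 89.1 and 83.0 CPM in control (log2 fold change -2.63 ± 0.25, adjusted p = 4.3e-05). The Wnt receptor gene fz averaged 11.4 ± 4.91 CPM in brat-KD and 36.1 ± 7.69 CPM in control (log2 fold change -1.66 ± 0.38, adjusted p = 0.0085). In the JAK/STAT pathway the kinase gene hop averaged 71.0 ± 7.99 CPM in brat-KD and 29.0 ± 7.47 CPM in control (log2 fold change 1.29 ± 0.23, adjusted p = 0.0018). The transcription factor gene Stat92E averaged 60.4 ± 11.2 CPM in brat-KD and 52.8 ± 15.5 CPM in control (log2 fold change 0.20 ± 0.24, adjusted p = 0.59). Its target Socs36E averaged 48.1 ± 12.01 CPM in brat-KD and 41.8 ± 3.56 CPM in control (log2 fold change 0.21 ± 0.24, adjusted p = 0.57). Neither passed the test. Wnt4 and hop did not pass when all 3 genotypes were fitted at once (adjusted p-values of 0.063 and 0.06). Wnt4, fz, Stat92E and Socs36E overlap another annotated gene.

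Among genes whose span overlaps no other gene and whose mean log2 CPM was at least 4, the largest rise was that of Bcat. The lactate dehydrogenase gene Ldh (log2 fold change 4.88 ± 0.22, adjusted p = 1.9e-06) and the translation repressor gene Thor (log2 fold change 4.45 ± 0.57, adjusted p = 0.00029) came next, and foxo, Pfk and mnd were also among the 12 largest (log2 fold changes 3.21, 3.13 and 2.97). Rsph3, a homolog of a radial spoke protein of cilia, had 45.0, 59.3, 42.1 and 17.3 CPM in brat-KD, against 0, 3.89 and 3.11 CPM in control (log2 fold change 4.07 ± 0.78, adjusted p = 0.003). Myd88, the Toll pathway adaptor, had 46.6, 45.6, 45.7 and 39.5 CPM in brat-KD, against 0, 5.22 and 4.44 CPM in control (log2 fold change 3.74 ± 0.71, adjusted p = 0.0029). Control replicate 1 was the lowest library for both. Gbs-76A, a glycogen-targeting subunit of a protein phosphatase, had 55.2, 62.2, 49.5 and 48.0 CPM in brat-KD, against 1.65, 11.3 and 9.10 CPM in control (log2 fold change 2.85 ± 0.49, adjusted p = 0.0016). pst, a gene of virus resistance, averaged 52.9 ± 7.12 CPM in brat-KD and 7.45 ± 8.73 CPM in control (log2 fold change 2.83 ± 0.64, adjusted p = 0.0072). tut, a gene of germline differentiation, averaged 26.3 ± 4.74 CPM in brat-KD and 3.30 ± 2.86 CPM in control (log2 fold change 2.97 ± 0.80, adjusted p = 0.018), and its adjusted p was 0.052 without brat-KD replicate 1 and 0.052 without brat-KD replicate 4. The long noncoding RNA lncRNA:CR45242 had 593, 445, 457 and 349.7 CPM in brat-KD, against 76.8, 56.8 and 55.0 CPM in control (log2 fold change 2.88 ± 0.21, adjusted p = 1.5e-05), and the groups were far apart. Rsph3 and tut did not pass when all 3 genotypes were fitted at once (adjusted p-values of 0.075 and 0.18).

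The largest falls among such genes were in Eaat2 and in lncRNA:CR44272, which had 2.65, 2.70, 0 and 0.494 CPM in brat-KD, against 19.5, 51.5 and 49.3 CPM in control (log2 fold change -4.80 ± 0.83, adjusted p = 0.0016). Drl-2, a Ryk-family receptor of the Wnt pathway in axons, had 8.46, 2.37, 2.65 and 0.989 CPM in brat-KD, against 40.6, 78.3 and 61.5 CPM in control (log2 fold change -4.06 ± 0.57, adjusted p = 0.00046). wun2, a lipid phosphatase gene, had 3.35, 2.196, 2.78 and 6.59 CPM in brat-KD, against 52.5, 61.3 and 53.5 CPM in control (log2 fold change -3.90 ± 0.38, adjusted p = 4.8e-05). Sidpn, a bHLH gene related to dpn, averaged 10.5 ± 4.69 CPM in brat-KD and 105 ± 7.41 CPM in control (log2 fold change -3.31 ± 0.32, adjusted p = 4.8e-05). aln averaged 3.19 ± 1.45 CPM in brat-KD and 42.5 ± 10.3 CPM in control (log2 fold change -3.74 ± 0.42, adjusted p = 0.00011). The 12 largest falls also held kl-5 of the Y chromosome and eEF1alpha2 (log2 fold changes -4.30 and -3.998). The uncharacterised genes CG40498, CG14024, CG4133 and CG4596 completed them with log2 fold changes of -3.82, -3.66, -3.65 and -3.46. In all 12 the highest brat-KD library lay below the lowest control library, as the rule for naming them required.

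Some genes were close to absent in 1 genotype. At most 3 counts in every control library were found for 13 genes that rose, and at most 3 counts in every brat-KD library for 8 genes that fell. The first set was led by Cpr64Ac, a cuticle protein gene, with 235, 113, 229 and 189.8 CPM in brat-KD, against 0, 0 and 0 CPM in control, a rise of at least 377-fold when reckoned against 3 counts in each control library. The second set held mthl8, named here after its values were seen, a receptor gene of the Methuselah family, with 0, 0, 0 and 0 CPM in brat-KD, against 11.9, 23.1 and 15.1 CPM in control, a fall of at least 34.7-fold on the same footing. Of 18 cuticle and chitin genes tested, Cpr64Ac was the member that rose (2 rose without control replicate 1) and 0 fell. Cpr64Ac overlaps another annotated gene.

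On the fourth chromosome lowered genes outnumbered raised ones. Of 84 tested, 2 rose (2.38%) and 26 fell (31.0%), with a median log2 fold change of -0.61, whereas on the other large arms 11.7% to 15.9% rose and 12.9% to 15.4% fell. The median stayed between -0.71 without brat-KD replicate 1 and -0.43 without control replicate 1, and the lowered count was 18 without control replicate 2. The summed level of the chromosome's tested genes was 8340, 7947, 6828 and 7390 CPM in brat-KD, against 9723, 8735 and 8504 CPM in control, with no overlap. The neuronal, INP and temporal genes dpr7, ey and dati are among the 26. Of the 11 fourth-chromosome genes whose span overlaps no other gene, 0 rose and 2 fell, and their median was -0.03.

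Y-linked genes had no common direction, and the summed dosage compensation genes were lower in every brat-KD library. Of 6 Y-linked genes tested, 1 rose and 2 fell. Of 8 dosage compensation genes, 1 rose and 2 fell, with 3 higher and 5 lower (median -0.37). The rise was lost in every leave-out except that of control replicate 1. Their sum was 1626, 1479, 1309 and 1353 CPM in brat-KD, against 1992, 1780 and 1793 CPM in control, and lncRNA:roX1 made up most of it. kl-5, a dynein heavy chain gene of the Y chromosome, had 2.65, 2.03, 6.22 and 6.76 CPM in brat-KD, against 48.3, 103 and 113 CPM in control (log2 fold change -4.30 ± 0.44, adjusted p = 6.6e-05). WDY, also on the Y, had 88.3, 91.7, 40.4 and 63.8 CPM in brat-KD, against 29.0, 18.3 and 21.1 CPM in control (log2 fold change 1.64 ± 0.31, adjusted p = 0.0028). The male-specific RNA lncRNA:roX2 had 7.41, 4.39, 13.5 and 5.93 CPM in brat-KD, against 29.7, 32.0 and 64.6 CPM in control (log2 fold change -2.42 ± 0.44, adjusted p = 0.0022). lncRNA:roX1 had 1082, 1007, 822 and 925 CPM in brat-KD, against 1401, 1232 and 1264 CPM in control (log2 fold change -0.44 ± 0.15, adjusted p = 0.0502). The sex of the larvae is not given in the sources used here, and its part in these values was not tested. lncRNA:roX2 did not pass when all 3 genotypes were fitted at once (adjusted p = 0.18). WDY and lncRNA:roX1 overlap another annotated gene.

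The genes that moved also differed in how much of the genome they span. Among the shortest genes, those of the lowest decile (35 to 948 bp), 25 rose (2.87%) and 133 fell (15.3%), with a median log2 fold change of -0.30, and among genes of 5713 to 9620 bp 185 rose (21.2%) and 118 fell (13.5%). Among the highest decile (21469 bp or more) 114 rose (13.1%) and 238 fell (27.3%), with a median of -0.37. The lowered count in the lowest decile was 58 without control replicate 3, 70 without control replicate 2 and 80 without brat-KD replicate 1; the median there remained between -0.37 and -0.16. Among genes that overlap no other gene, the lowest decile had 11 raised and 65 lowered of 352, and the longest 56 raised and 77 lowered of 352.

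**Figure D5:**
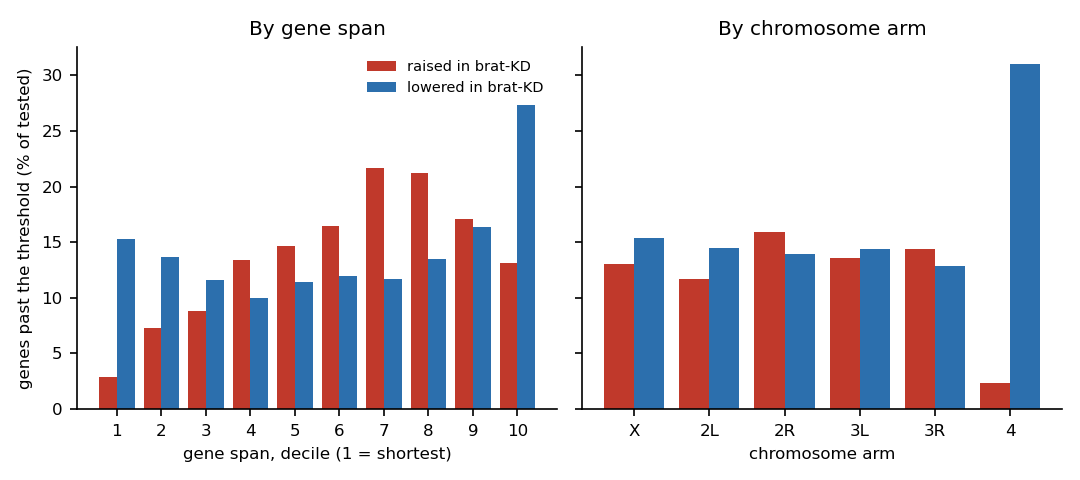
Percent of tested genes that rose or fell in brat-KD against control, by decile of gene span (left, shortest first) and by chromosome arm (right). Raised genes are rarest among the shortest genes (2.87%) and on chromosome 4 (2.38%), and lowered genes are most frequent among the longest genes (27.3%) and on chromosome 4 (31.0%).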

How the data were processed

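RNA was measured by poly(A) RNA-seq of sorted GFP-positive cells with a directional kit. The deposited table gives raw read counts per gene for each library, without pooling of replicates; according to the methods of the authors, reads were mapped to BDGP6 (dm6) with bowtie2 in very sensitive local mode. The program and annotation used for counting are not given in the sources used here. The submitters' processing notes also name FastQC and edgeR version 3.26.8. The table held 17676 genes, and 0 of its sample columns were left unmapped.

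Libraries were grouped by the genotype in their labels. Counts of the 4 brat-KD and 3 control libraries were fitted alone with edgeR 4.0.16 (limma 3.58.1, R 4.3.3): TMM normalization, filterByExpr, glmQLFit and glmQLFTest without covariates, with Benjamini-Hochberg adjustment over the 8785 genes tested and a threshold of 0.05. CPM were computed with TMM factors. The 3 brat-KD Spt5-KD libraries entered only 1 of the alternatives. Fits and calls were tested on simulated data. Of 200 genes given a 4-fold change there, among 8785 simulated, 128 were recovered (64%), all in the right direction, and 8 unchanged genes were called. The share of changed genes there was far below the 28.1% called in the data. The adjustment of p-values depends on that share, so the 64% need not hold for the data. A gene that did not pass may still have changed. Gene names and spans came from Ensembl release 115 (BDGP6.54), in which 17549 of the genes were found. Spans were compared without regard to strand. Lists were described by counts and medians, and no set test was run. The planned description of promoter motifs was not run.

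The comparison, the 56 gene lists and their members were chosen with earlier results of these data known. Named genes followed a rule. It took brat, the defining members of each list, at most 3 called members of a list in each direction (those with the largest change, libraries that did not overlap and an average log2 CPM of 2 or more), and the 12 genes that rose most and the 12 that fell most out of the called genes that overlap no other, have libraries that did not overlap and average 4 or more in log2 CPM; exceptions are stated where they occur. For a gene with at most 3 counts in every library of a genotype, the bound on its fold change was taken against 3 counts in each of those libraries; bounds cover counting error only. Alternatives were DESeq2 1.42.0, its size factors or total counts in edgeR, 2 other filters, a fit of all 3 genotypes, the replicate number as a block, each library left out, and only genes that overlap no other. Tables and figures were made with Python 3.11.15, pandas 2.3.3 and matplotlib 3.10.9.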

Additional observations from a re-analysis of the deposited data

Results flagged for a closer look

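Single brat-KD libraries stood apart from the other 3 in 14 of 256 sets of values examined (200 named genes and 56 list sums), by Dixon's test at the 95% level; chance alone marks about 1 set in 20. Replicate 4 was the high one for ey, the Pax6 homolog of older INPs (22.6 CPM), for the death activator skl (10.9 CPM), for the ecdysone receptor coactivator tai (216 CPM), for the peroxiredoxin gene Prx2 (327 CPM) and for the sum of the fat body markers (30.3 CPM), and the low one for the Toll adaptor Myd88 (39.5 CPM). Replicate 3 was high for the mitochondrial chaperone Hsp60A (1304 CPM) and the V-ATPase gene Vha100-2 (136 CPM), and low for the proteasome gene Prosalpha4 (113 CPM), the TOR activator Rheb (16.5 CPM) and the arginine transporter slif (0.397 CPM). Replicate 2 was low for citrate synthase kdn (212 CPM). Replicate 1 was high for the channel gene Ih (3.00 CPM) and for the sum of the Myc network (808 CPM). In each of these 12 genes the library that stood apart lay on the same side of all control libraries as the other 3, and slif alone did not pass the test.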

How the results depend on the processing

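The number of genes past the threshold, 2467, lay between 2374 and 2873 with DESeq2, with its size factors or total counts in the edgeR test, with no filter on low counts and with at least 10 counts in every library. It was 1250 (676 raised and 574 lowered) when all 3 genotypes were fitted at once, and the cause was not tested. List counts shrank with it. The lowered genes were then 10 for the proteasome, 8 for cytoplasmic ribosomal proteins, 4 for respiratory complexes II to V, 2 for complex I, 7 for homeobox genes, 4 for INP factors, 5 for ion channels and receptors, 5 for the dpr, DIP, beat and side families and 3 for heat shock proteins. The raised genes were 22 for the nucleolus, 11 for mitosis, 7 for replication, 7 for translation factors, 5 for RNA polymerases I and III, 5 for purine synthesis, 5 for mitochondrial ribosomal proteins, 3 for the tricarboxylic acid cycle and 3 for chromatin regulators. Among genes that overlap no other it was 1061 (523 raised and 538 lowered), since fewer genes were tested. Leaving out 1 library gave 1691 without control replicate 3 to 3229 without control replicate 1, with 875 to 1606 raised and 815 to 1623 lowered.

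Whether the replicate numbers pair the libraries could not be decided from the counts. Deviations within so small a group are tied to each other, so their correlations have little power to exclude pairing. Deviations from the group means correlated at 0.0015, 0.107 and -0.0267 between same-numbered libraries, and not every library correlated best with its own number. With the replicate number as a block 1735 genes passed, 898 raised and 837 lowered.

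Of 173 named genes past the threshold, 146 kept their call in all 15 alternatives that gave a value for them, and 0 changed sign. The fit of all 3 genotypes lost 24, which are named beside their values in the report, the block lost 6 (pum, twin, eEF1alpha1, Hsp67Bc, CycB and tut), total counts lost pum and twin, no filter lost eEF1alpha1 and each left-out library lost 1 to 6. Signs turned in 7 genes that had not passed. With the block repo was at 0.692, brm at -0.042 and E(spl)mgamma-HLH at -0.059 (log2 fold change), and brm was at -0.002 without the filter and PCNA at -0.012 among genes that overlap no other. With 1 library left out, E(spl)mgamma-HLH lay between -0.123 and 0.546, repo between -1.096 and 0.007, Eip93F between -0.292 and 0.072, PCNA between -0.108 and 0.141, brm between -0.14 and 0.198, chinmo between -0.062 and 0.163 and RpL7 between -0.129 and 0.136. List medians moved by 0.2 or more in some alternative for 36 of 56 lists. Libraries of 4968226 to 9753111 counts leave changes in rarely read genes not detectable at this depth.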
